A study of Mus musculus with 12 samples.

Results

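The large olfactory receptor cluster of mouse chromosome 2 was described by its overlap with domains of H4K20me3, trimethylation of histone H4 at lysine 20. Its members were the RefSeq protein-coding genes named Olfr plus a number that lie between 85 and 91 Mb of that chromosome on GRCm38.p6 (mm10). They numbered 222 of 1105 olfactory receptor genes and of 21523 protein-coding genes on chromosomes 1 to 19 and X. They ran from 85330967 to 90401674, a stretch of 5.07 Mb. All 222 belonged to 1 run with no gap over 1 Mb, while the other 64 receptor genes of chromosome 2 lay elsewhere on it. The same stretch held 110 other annotated genes, of which 71 were receptor pseudogenes, 32 other pseudogenes and only 3 protein-coding.

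The mark was profiled by ChIP-seq in the mouse ES cell line dTKO, for which all 12 samples carry the genotype label Suv39h1fl/fl; Suv39h2-/-; Setdb1fl/fl. These 3 genes are H3K9 methyltransferase genes, and Suv39h2 is thus given as null at every time, 0 h included. All samples come from this 1 line. All samples are labelled with auxin and dTAG13, at 100 μg/ml and 0.5 μM, and 3 replicates were collected at 0, 12, 24 and 48 h. The values used here are 1 list of 28210 domain positions that names no sample or time and carries no signal. Decay over time, library depth and replicate error therefore could not be measured, the labelled cell type could not be checked, and no difference below has a test.

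Olfactory receptors are G protein-coupled receptors that bind odorants at the cilia of olfactory sensory neurons. Each such neuron expresses a single receptor allele, and in those neurons the silent receptor genes are known to carry the heterochromatin marks H3K9me3 and H4K20me3. H4K20me3 is laid down mainly by Kmt5b and Kmt5c, which are recruited through HP1 proteins bound to H3K9me3. Embryonic stem cells are not olfactory neurons.

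H4K20me3 domains were frequent in the cluster but lay between the receptors. Receptor bodies were covered over 1.35% of their 362.5 kb, the sequence between receptors over 6.77% of its 4708 kb, and the 5 Mb on either side over 2.50% of 10 Mb. The cluster as a whole was touched by 89 domains, or 17.6 per Mb, against 8.40 per Mb in the flanks and 8.23 per Mb on the rest of chromosome 2 after its first 3 Mb. Chromosomes 1 to 19 and X after their first 3 Mb had 11.0 domains per Mb and 4.57% of bases covered. It held 5.86% of the 1520 domains of the chromosome on 2.79% of its length. The median domain width was 2.85 kb in the cluster, 2.78 kb in the lower flank, 2.33 kb in the upper flank and 3.00 kb over all 28210 domains. The upper quartile was 4.35 kb in the cluster and 3.60 kb in the flanks, and the mean 3.64 and 2.98 kb, so the cluster had more domains per Mb than the flanks and somewhat wider ones.

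The flanks differed from each other. The lower flank, from 80330967 to 85330966, was covered over 3.69% by 60 domains, and the upper flank, from 90401675 to 95401674, over 1.31% by 24. Sequence between receptors exceeded both, whereas receptor bodies were below the lower flank and close to the upper one. With protein-coding bodies taken out of the flanks, the remaining flank sequence was covered over 3.50%, still below that between receptors. The protein-coding bodies of the flanks were covered over 0.714%, less than the receptor bodies.

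**Figure D1:**
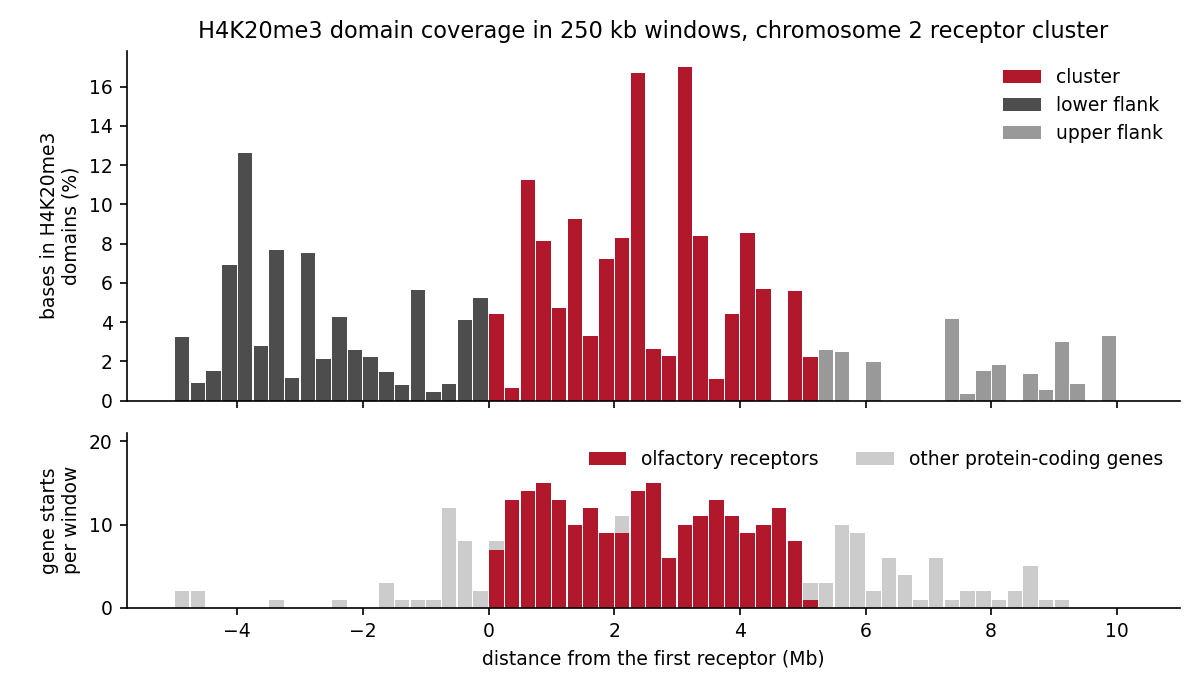
Share of bases in H4K20me3 domains (top, %) and number of gene starts (bottom) in 250 kb windows along the cluster and its 5 Mb flanks, by distance from the first receptor in Mb. The 21 windows of the cluster range from 0 to 16.98% with a median of 5.58%, against medians of 2.67% in the lower and 0.690% in the upper flank; the last cluster window reaches past the last receptor.

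Coverage was spread over the whole cluster and was uneven at the scale of a few receptors. In steps of 1 Mb from the first receptor, domains took 6.12%, 6.12%, 7.47%, 7.73% and, in the last 1.07 Mb, 4.62% of the sequence. These pieces held 49, 44, 44, 45 and 40 receptors, and both measures varied more in windows of 250 kb. The highest windows, at 3 and 2.25 Mb from the first receptor, had 16.98% and 16.7%. One window, at 4.5 Mb, had 12 receptors and no domain. Outside the cluster, the highest window had 12.6% and lay in the lower flank.

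Of the 222 receptors, 4 met a domain by at least 1 base (1.80%), against 14.1% of all protein-coding genes. Receptor bodies are short, with a median of 945 bases, and 185 of the 222 were 0.9 to 1.1 kb long. Within that length range 2 of the 185 receptors met a domain (1.08%), against 8 of 394 other protein-coding genes (2.03%), so short genes of both kinds were far below 14.1%. Receptors elsewhere in the genome met a domain in 27 of 883 cases (3.06%), and protein-coding genes of the flanks in 10 of 93 (10.8%). At least 50% of the body was covered in 3 of the 222 (1.35%), against 0.739% of all protein-coding genes, a difference that rests on 3 genes. No share matched for body length was computed for this criterion, and a short body needs fewer covered bases to reach it.

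The 4 receptors that met a domain were Olfr1033, Olfr1045, Olfr1047 and Olfr1166. They belong to 4 different subfamilies of the MOR nomenclature, which groups mouse odorant receptors by protein similarity, namely MOR199, MOR185, MOR188 and MOR174. The odorants that these receptors bind are not described here. For 3 of them RefSeq gave the 300 bases around the annotated start, 250 before it and 50 after it, on the minus strand of GRCm38.p6. The windows below show which starts the domains reach: that of Olfr1045 (chr2:86198701-86199000) and that of Olfr1047 (chr2:86228920-86229219) lay wholly inside a domain. That of their neighbour Olfr1046 (chr2:86217659-86217958) lay 9.69 kb from one, and that of Olfr1166 (chr2:88124944-88125243) lay 0.543 kb outside the domain that covers the other end of the gene. Capitals mark an ATG at the annotated start, bases 251 to 253 of the window.
Olfr1045: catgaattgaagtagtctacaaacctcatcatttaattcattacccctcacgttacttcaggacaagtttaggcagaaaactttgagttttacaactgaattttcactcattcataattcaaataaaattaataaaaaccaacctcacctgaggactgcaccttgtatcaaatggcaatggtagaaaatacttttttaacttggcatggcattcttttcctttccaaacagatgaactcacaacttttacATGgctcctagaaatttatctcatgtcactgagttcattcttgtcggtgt
Olfr1046: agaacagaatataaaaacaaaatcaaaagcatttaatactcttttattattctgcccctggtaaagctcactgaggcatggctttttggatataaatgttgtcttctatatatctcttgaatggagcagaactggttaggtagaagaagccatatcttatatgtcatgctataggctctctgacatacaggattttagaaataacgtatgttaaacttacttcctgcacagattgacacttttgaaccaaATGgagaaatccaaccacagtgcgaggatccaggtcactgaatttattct
Olfr1047: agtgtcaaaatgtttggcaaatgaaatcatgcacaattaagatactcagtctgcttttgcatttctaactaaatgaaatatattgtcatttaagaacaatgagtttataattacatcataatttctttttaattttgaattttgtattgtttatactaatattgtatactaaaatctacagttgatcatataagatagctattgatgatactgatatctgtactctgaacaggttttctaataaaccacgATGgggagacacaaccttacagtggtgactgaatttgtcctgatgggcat
Olfr1166: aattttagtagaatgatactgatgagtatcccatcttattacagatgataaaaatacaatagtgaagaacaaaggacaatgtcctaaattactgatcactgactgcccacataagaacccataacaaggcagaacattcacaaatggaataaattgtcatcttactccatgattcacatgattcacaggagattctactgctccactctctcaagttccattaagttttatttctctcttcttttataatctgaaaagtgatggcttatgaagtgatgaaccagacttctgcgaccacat

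An ATG at the annotated start was common in the cluster, in 130 of 187 windows from 186 receptors (69.5%), against 5.46% of all 32619 start windows on chromosomes 1 to 19 and X. In those windows an ATG stands at the annotated start, which therefore need not be the site of transcription start. Exons and coding sequence were not mapped, so the distances below are to the edges of annotated bodies. Of the 187 windows, 2 met a domain (1.07%), against 1.96% of all windows. The windows of the cluster were AT-rich, with a median of 32.0% G and C, against 36.7% in the windows of other olfactory receptors and 53.0% in all windows. The windows of Olfr1045, Olfr1046, Olfr1047 and Olfr1166 had 34.7%, 35.7%, 29.3% and 35.0%.

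Olfr1045 (86197803 to 86198750) was covered over its whole 948 bases by a domain of 4.05 kb, from 86197801 to 86201850. The domain began 2 bases below the gene and reached 3100 bases past its start, so its complete coverage rests on 1 domain edge that is placed to the nearest 150 bases. Olfr1047 (86228010 to 86228969) lay more deeply inside a domain of 5.10 kb, from 86227651 to 86232750, with 359 bases on one side and 3781 on the other. Olfr1046, which lies between them (86215975 to 86217711), had its nearest domain 9.94 kb away. Olfr1048, the next receptor above Olfr1047, had one at 3120 bases, and Olfr1049 had one at 0.564 kb. Covered and uncovered receptors thus lay side by side within 57.9 kb.

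**Figure D2:**
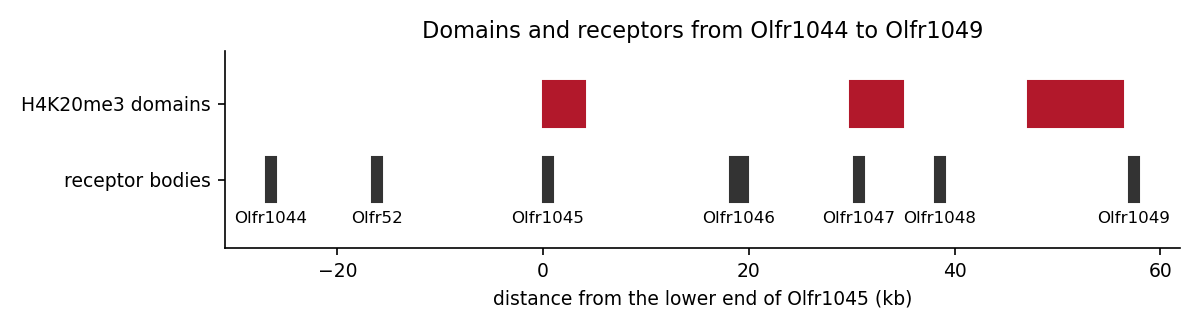
Receptor bodies (black) and H4K20me3 domains (red) from Olfr1044 to Olfr1049, drawn to scale in kb from the lower end of Olfr1045. Domains of 4.05 and 5.10 kb cover Olfr1045 and Olfr1047, another of 9.30 kb ends 0.564 kb before Olfr1049, and the other receptors of the map meet none.

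The other 2 receptors were met in part. Olfr1166 (88123360 to 88124993) had 1041 of 1634 bases covered (63.7%) by a domain of 3.15 kb from 88121251 to 88124400, which left the 593 bases nearest its annotated start outside. Olfr1033 (86020640 to 86044808) has a body of 24.2 kb, the longest of the 222, and a domain of 1.95 kb from 86025751 to 86027700 covered 8.07% of it. That domain began 5.11 kb inside the gene. Exon positions were not used here, so whether it meets an exon of Olfr1033 is not known.

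Away from the bodies, coverage grew with distance. It was 1.45% of the sequence within 1 kb of the nearest receptor body, 2.46% at 1 to 2 kb, 4.22% at 2 to 5 kb, 8.12% at 5 to 10 kb and 11.0% at 10 to 20 kb. At 20 to 50 kb it was 12.3% of 323.8 kb. The 40.1 kb that lay farther than 50 kb from any receptor are all in 1 gap and held no domain. Receptor pseudogenes, which are decayed receptor genes, showed the same order up to 20 kb: their bodies were not covered (0 of 71 met a domain), and coverage around them was 0.327% within 1 kb, 1.31% at 1 to 2 kb, 5.50% at 2 to 5 kb and 9.08% at 10 to 20 kb. These 71 bodies are short, with a median of 904 bases, and of other protein-coding genes of 0.9 to 1.1 kb 8 of 394 met a domain (2.03%). Of the 32 other pseudogenes, with a median of 914 bases, 4 met a domain (12.5%). Those 32 span 76.5 kb, against 66.5 kb for the 71 receptor pseudogenes, and a share over all pseudogenes of the genome was not computed. The pseudogenes and receptors share the same stretch, so their profiles use some of the same domains.

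**Figure D3:**
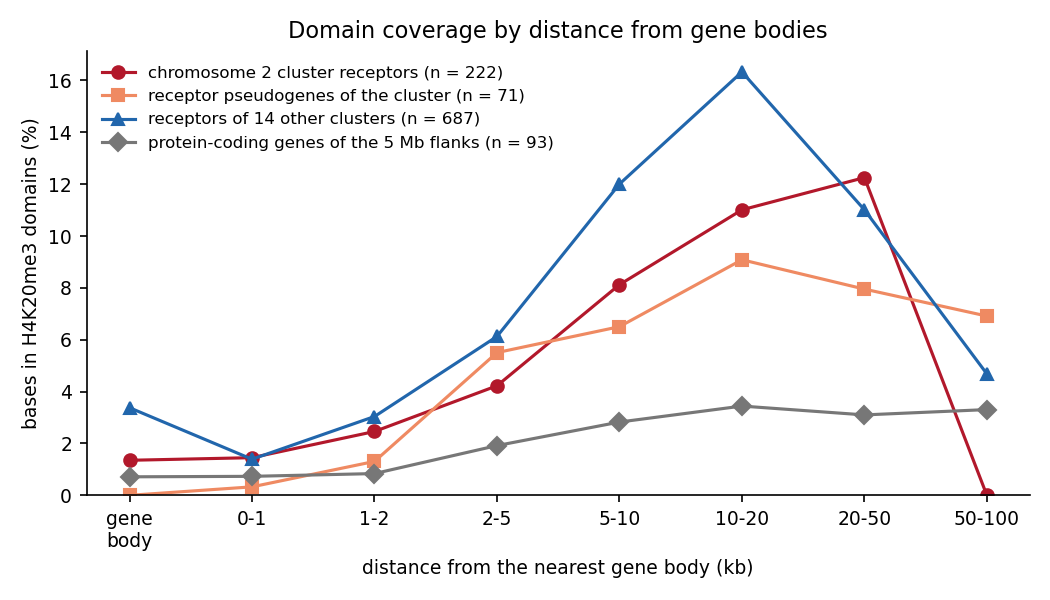
Share of bases in H4K20me3 domains (%) in gene bodies and by distance from the nearest gene body (kb), for the receptors and receptor pseudogenes of the cluster, for receptors of 14 other clusters and for protein-coding genes of the flanks. Cluster receptors go from 1.35% in the body to 12.3% at 20 to 50 kb, while flank genes stay between 0.714 and 3.44%; the last point of the cluster rests on 40.1 kb of 1 gap.

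The same measure around the protein-coding genes of the flanks was lower. It was 0.732% within 1 kb, 0.839% at 1 to 2 kb, 1.92% at 2 to 5 kb, 2.83% at 5 to 10 kb, 3.44% at 10 to 20 kb and 3.10% at 20 to 50 kb. The cluster was above the flanks in the bodies and in each distance bin up to 50 kb, and over that range the share was lowest in the bodies in both. Beyond 50 kb the flank genes had 3.31%.

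Neither side of the receptors was favoured throughout. The table of starts gave the strand of 186 receptors, of which 124 were on the minus and 62 on the plus strand. Their nearest domain lay upstream of 88 and downstream of 95. Coverage at 2 to 5 kb was 3.06% upstream and 5.87% downstream, whereas at 10 to 20 kb it was 11.6% upstream and 8.16% downstream.

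Seen from the receptors, the nearest domain lay at a median of 17.1 kb, with quartiles of 7.84 and 37.1 kb and a largest distance of 145.3 kb. Within 1 kb, 9 receptors had a domain, or 4.05%, against 15.5% of all protein-coding genes. These shares were not matched for body length, and no matched share was computed at this distance. Within 20 kb, 125 receptors (56.3%) had a domain, and 38 (17.1%) had none within 50 kb. No share over all protein-coding genes was computed at 20 or 50 kb, so whether these 2 counts are unusual is not known. The nearest misses were Olfr1241 at 0.033 kb, Olfr1238 at 0.129 kb, Olfr1198 at 0.559 kb, Olfr1049 at 0.564 kb and Olfr1086 at 0.698 kb. In the 4 of these with a known strand, Olfr1241, Olfr1238, Olfr1198 and Olfr1049, the domain lay downstream. The distances for Olfr1241 and Olfr1238 are below the 150-base grid on which domain edges are placed, so these 2 stand at the border of being counted.

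The receptors farthest from a domain were Olfr1258 (145.3 kb), Olfr1259 (142.9 kb), Olfr1000 (124.0 kb), Olfr1260 (108.3 kb) and Olfr998 (106.6 kb). They lay in 2 places. Olfr1258, Olfr1259 and Olfr1260 belong to the longest stretch of the cluster with no domain, 310.4 kb from 89776651 to 90087000, which holds 14 receptors from Olfr1254 to Olfr140. Olfr998 and Olfr1000 belong to the next longest, 254.9 kb from 85483951 to 85738800, which holds 8 receptors from Olfr996 to Olfr1009.

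**Figure D4:**
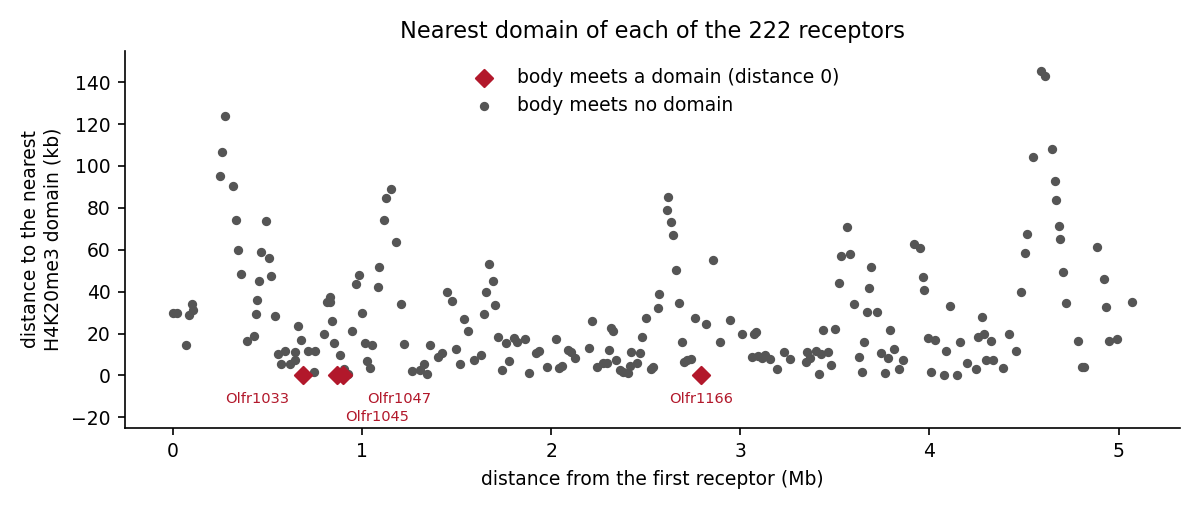
Distance from each of the 222 receptor bodies to the nearest H4K20me3 domain (kb) against its distance from the first receptor (Mb). The 4 receptors that meet a domain are the red diamonds at 0, and peaks of over 100 kb mark the 2 longest stretches with no domain.

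Receptors of 1 subfamily mostly sit side by side, and their distances to a domain followed their place in the cluster. A MOR family number could be read for 215 receptors, in 47 families, 16 of them with at least 6 members. Olfr1220 (MOR2335), Olfr1245 (MOR23112), Olfr1246 (MOR2319) and Olfr1248 (MOR23110) have names without a hyphen after the family number. These receptors were therefore assigned to no family. Among these 16, MOR177, with 13 receptors, had the smallest median distance, 5.96 kb, and MOR175, with 6, and MOR232, with 8, the largest, 92.9 and 85.8 kb. Olfr998 and Olfr1000 are MOR175 and Olfr1258, Olfr1259 and Olfr1260 are MOR232. MOR233, the largest family with 17 receptors assigned, had a median of 18.0 kb and a range of 1.80 to 62.9 kb. Olfr1220, which lies among its receptors but was not counted with them, had a domain at 1.29 kb. Members of a family share their neighbourhood, so these medians are not separate measurements.

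Seen from the domains, 85 of the 89 met no receptor, and their nearest receptor body lay at a median of 7.18 kb (quartiles 3.42 and 11.9 kb, largest 39.2 kb). The 5 widest were among these. The widest, 13.5 kb from 86059351 to 86072850, lay between Olfr1034 (11.9 kb away) and Olfr1036 (1.85 kb away). Another, 11.6 kb from 89560051 to 89571600, lay between Olfr1243 and Olfr1245, 31.6 and 3.11 kb away. The next after it, 10.7 kb from 85957351 to 85968000, lay between Olfr1028 and Olfr1029, 5.31 and 7.21 kb away, and contained the whole of the long noncoding RNA gene Gm52520. Those of 9.75 and 9.30 kb lay between Olfr1080 and Olfr1082 and between Olfr1048 and Olfr1049.

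Between neighbouring receptors there were 220 gaps, because the bodies of Olfr32 and Olfr1270 overlap. Of these, 73 shared at least 1 base with a domain, with a median gap of 26.9 kb, and 147 shared none, with a median gap of 14.1 kb. Some were counted only through a domain that also meets a receptor, as between Olfr52 and Olfr1045, with 0.002 kb covered. A domain reached into 3 of 44 gaps of up to 10 kb, 18 of 86 gaps of 10 to 20 kb, 23 of 46 gaps of 20 to 30 kb and 29 of 44 wider gaps. Longer gaps offer more sequence, but the covered share also differed, at 2.69%, 4.12%, 8.23% and 8.32%. Up to 3 domains shared a gap, as between Olfr1080 and Olfr1082, where 14.1 kb of 35.7 kb (39.4%) were covered, between Olfr1189 and Olfr1193, and between Olfr1251 and Olfr1252. These 3 gaps were chosen after their values were seen.

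The few other genes of the cluster gave a mixed picture. None of its 3 protein-coding genes met a domain. Fads2b, named as a fatty acid desaturase gene, had one 0.141 kb away, and Pramel7 and Pramel6, 2 Prame-like genes, had one at 2.34 and 6.34 kb. Besides Gm52520, the genes met were the pseudogenes Gm13758, covered whole, Gm1826 (84.1%), Gm13735 (79.1%) and Nlk-ps1 (36.3%).

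The arrangement was compared with 14 other runs of at least 20 receptors, which hold 687 receptors. Pooled, these were covered over 3.38% of receptor bodies, 9.51% of the sequence between receptors and 3.56% of their flanks. In all 14 the sequence between receptors had a higher share than the bodies and than the flanks, as in the chromosome 2 cluster, although the difference from the bodies was small on chromosome 14 (11.5% on bodies and 11.6% between). The flanks of the chromosome 10 cluster were cut at the chromosome end and came to 5.38 Mb. The clusters on chromosome 7 lie inside each other's flanks. On the bodies the chromosome 2 cluster, at 1.35%, lay below the median of the other 14 (1.89%, range 0 to 11.5%). Between receptors it was, at 6.77%, among the lower, since 11 of the 14 had a higher share (median 9.69%, range 2.94 to 17.0%). In domains per Mb the other clusters ranged from 6.04 to 30.3, and most were above the 17.6 of the chromosome 2 cluster. The next largest cluster, on chromosome 7 from 102476773 to 105369317 with 126 receptors, had 3.60% on bodies and 5.88% between them, and that on chromosome 9 from 37711348 to 40188094 with 94 receptors had 0.988% and 9.55%.

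**Figure D5:**
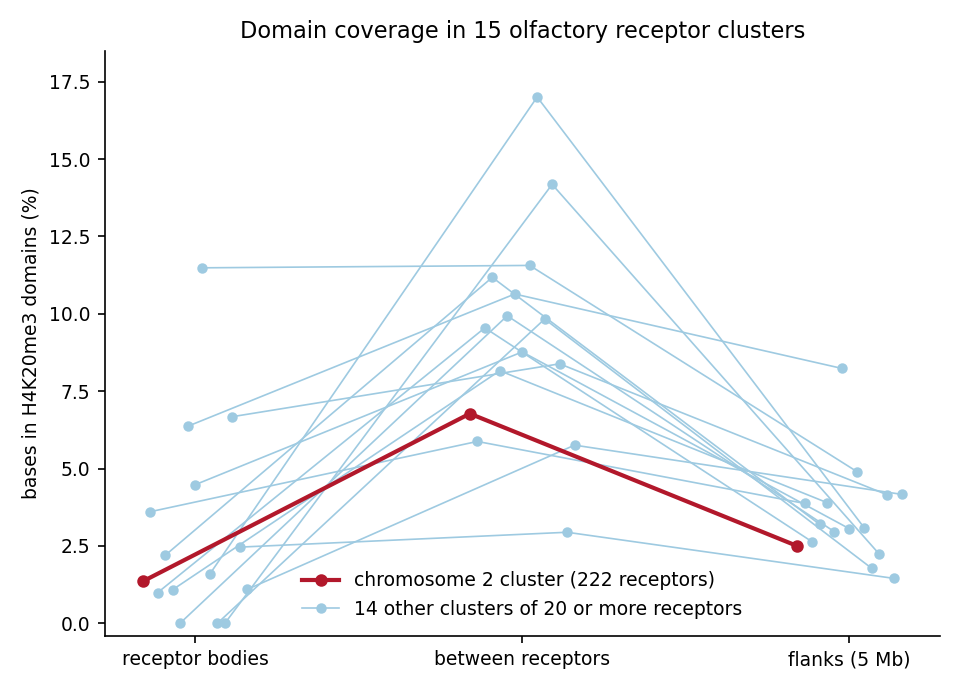
Share of bases in H4K20me3 domains (%) in receptor bodies, between receptors and in flanks of up to 5 Mb on either side of 15 olfactory receptor clusters, each line 1 cluster. The chromosome 2 cluster (red) goes through 1.35, 6.77 and 2.50%, and each of the 14 others also has its highest value between receptors.

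Genes that receptors work with lie elsewhere in the genome and were read from 4 lists. Of 18 genes of olfactory signal transduction, 4 met a domain (22.2%, against 14.1% of all protein-coding genes). Adcy3, the adenylyl cyclase of olfactory cilia, had 2.40 kb covered, and Ano2, the calcium-activated chloride channel of the cilia, had 7.20 kb. Stoml3, a stomatin-like protein of olfactory cilia, had 1.05 kb, and Pde1c, a calmodulin-dependent phosphodiesterase, had 12.9 kb. These were 2.06 to 5.21% of the gene bodies. Only the share of Stoml3 was above the 4.57% covered on chromosomes 1 to 19 and X after their first 3 Mb. Body length was not matched in any of the 4 lists. Among other protein-coding genes of 0.9 to 1.1 kb, 8 of 394 met a domain (2.03%). Among 29 factors of receptor choice and its chromatin, 5 met one (17.2%). In Setdb1 6 domains took up 6.30 kb (18.7% of the gene) and in Suv39h1 2 domains took up 5.70 kb (41.9%). Both genes carry fl/fl in the genotype label of this line, and whether that bears on these domains was not tested. Cbx1, an HP1 gene, had 1.35 kb (6.65%), and the transcription factor genes Ebf3 and Nfix had 3.75 kb (2.90%) and 0.750 kb (0.777%). No member met a domain among 6 genes of receptor trafficking, such as Rtp1 and Rtp2, or among 15 trace amine receptors, which are a separate receptor family.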

How the data were processed

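The 12 libraries fall into 4 times with 3 replicates each, but the only file used is the authors' deposited list of H4K20me3 domains, which gives a chromosome, a start and an end and no header. Per the file name, RSEG made the calls; it divides the genome into marked and unmarked segments. No source used here states which version, cut-off or libraries it was given, or how reads that match several paralogs were placed. The submitters' processing notes name bedtools, deepTools, SAMtools 1.1 and Bowtie2 2.3.4.1 without their roles. Edges lie on a grid of 150 bases, tested on the 89 domains of the cluster. The list holds no depth or signal, so no interval from read counts and no comparison of times was possible.

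Genes and start windows came from RefSeq tables of GRCm38.p6, without exons. Genes starting in the first 3 Mb and those not on chromosomes 1 to 19 or X were left out. The cluster ran from the first receptor start to the last receptor end, and the flanks were 5 Mb either side. A gene met a domain when at least 1 base was shared. Distances were counted from body edges, and each base between receptors was assigned to its nearest body. Strand profiles stopped midway to the next receptor. Other clusters were runs of at least 20 receptors with gaps of at most 1 Mb. The interval functions were tested on simulated data in 200 interval sets.

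Named genes follow a rule, which takes receptors that meet a domain, the 5 nearest without meeting one and the 5 farthest. It also takes the 5 widest domains with their neighbours, other protein-coding genes that meet a domain, and members of 4 lists that meet one. Fads2b, Pramel7, Pramel6, Rtp1 and Rtp2 meet none and were named outside this rule. Subfamilies, stretches without a domain and other genes were named after their values were seen. The members and lists were chosen with earlier results of these data known. Alternatives changed the domain set, the gene ends, the members, the flanks and the sequence counted as between. Values were computed in pandas 2.3.3 and numpy 2.4.6 under Python 3.11.15, with intervals from scipy 1.17.1 and plots from matplotlib 3.10.9.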

Additional observations from a re-analysis of the deposited data

How the results depend on the processing

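The sequence between receptors had a higher covered share than receptor bodies and than the flanks under every setting tried. Values were called moved when they left the exact 95% binomial interval of the value in the report, taken over units of 150 bases, which treats neighbouring units as independent and says nothing of read depth or replicate error. When domains narrower than the median of 3.00 kb were dropped, the shares were 0.814% on receptor bodies, 4.99% between receptors and 1.69% in the flanks. With domains closer than 5 kb merged, the sequence between receptors had 7.13%, and with gene ends extended by 1 kb it had 7.32%. The flanks moved most with their definition, at 1.87% for 2 Mb either side, 2.93% for 10 Mb, 3.69% for the lower and 1.31% for the upper flank alone, and 3.50% without protein-coding bodies. Receptor bodies, at 1.35%, were above the upper flank alone and below the others of these. The number of receptors that met a domain was 9 with ends extended by 1 kb, against 4, and 3 or 4 under the other 5 settings. No gap between receptors exceeded 200 kb, so leaving out such gaps gave no other value. The settings without bodies over 2 kb, without pseudogene bodies and without protein-coding bodies in the flanks were added after seeing the data.

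No paired analysis was possible because the list names no sample, and leaving out replicates was not run for the same reason. Domain edges on the grid of 150 bases limit any distance below that size. No signal is given, so weakly and strongly marked domains count alike.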
